A study of Drosophila melanogaster with 4 samples.

Results

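The genes described here encode the nuclear part of the oxidative phosphorylation (OXPHOS) machinery in sorted wing disc myoblasts of Drosophila melanogaster, the precursors that fuse into adult flight muscle. Members were taken by gene symbol, as the genes named ND- (complex I), Sdh (complex II), UQCR (complex III), COX (complex IV) or ATPsyn (complex V) that lie outside the mitochondrial genome. This gave 81 of the 17494 genes in the table, with 40 in complex I, 7 in complex II, 8 in complex III, 11 in complex IV and 15 in complex V. The symbols covered 62 ordinary subunits, 16 paralogues whose name adds an L to that of a subunit in the set, 2 further L-named genes whose parent has another kind of name, and the assembly factor gene Sdhaf3.

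OXPHOS couples the oxidation of NADH and succinate to the pumping of protons across the inner mitochondrial membrane, and ATP synthase uses the returning protons to make ATP. Complexes I, III, IV and V are built from both nuclear and mitochondrial gene products, whereas complex II is wholly nuclear and also works in the TCA cycle. Adult flight muscle is among the most mitochondria-rich insect tissues, and in Drosophila many OXPHOS genes have duplicates known for expression biased to the testis.

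RNA-seq read counts were available for 2 control libraries (replicates 2 and 3), in which Mef2-Gal4 and UAS-GFPnls were combined with the UAS-Y RNAi hairpin, and for 2 Antp RNAi libraries (replicates 1 and 2), in which UAS-Antp RNAi took its place. Both groups carried the Mef2-Gal4 driver, which acts in the muscle lineage, and the GFP reporter used for sorting. Larvae were raised at 29 °C and dissected at 0 hours after puparium formation (APF), several discs being pooled per sample. One label names the reporter GFP::Gma and the control WT, so the genotypes are not described uniformly. The series text speaks of biological replicates and the study's methods of technical replicates of 1 biological sample, so the p-values below measure the spread between these libraries, which may be technical.

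Library totals ran from 42110502 to 53957914 counts. Levels are given as CPM, the counts relative to a common library size scaled by the trimmed mean of M-values (TMM). A count of 0 allows a level of up to 3 counts, which was between 0.0551 and 0.0708 CPM by library. The reads carried no molecular identifiers, so this floor covers counting error only. The target gene Antp stood at 192 and 172 CPM in the control and at 135 and 144 CPM in the Antp RNAi libraries, and its log2 fold change of -0.38 ± 0.11 (SE) missed the threshold (adjusted p = 0.145, edgeR), both Antp RNAi libraries lying below both controls. The myoblast markers twi, Him and zfh1 each reached at least 1338 CPM in every library, and the fat body list summed to at most 0.583 CPM. Of the 8 myoblast genes 4 were higher and 4 lower in the Antp RNAi libraries. EdgeR called 1 of them at an adjusted p under 0.001, Ama (lower, -1.42), where 0.463% of all genes were called. At 0.05 DESeq2 called 2, Ama and zfh1 (higher, 0.46 by edgeR), where 4.13% of all genes were called. Mitochondrial transcripts were not measured, since all 37 genes of the mitochondrial genome, COX1, COX2 and COX3 among them, were listed at 0 in the 4 libraries.

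The 62 ordinary subunits were all expressed in these myoblasts, with at least 51 counts in every library, and 41 of them had under 1000 bases of exon. Levels were compared between genes as CPM per kilobase of exon, averaged over the 4 libraries. On that scale the median subunit stood at 98.8, against 13.7 for the median of all 10360 genes tested. The medians by complex were 66.1 for complex I, 107 for complex II, 92.5 for complex III, 173 for complex IV and 274 for complex V.

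**Figure D1:**
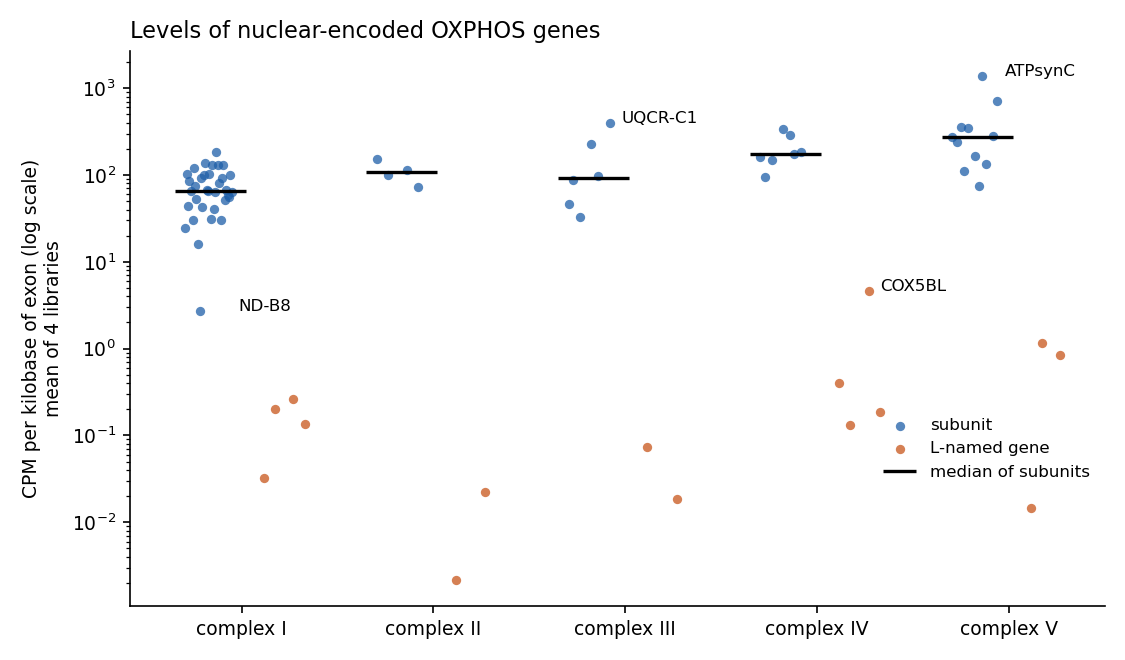
Level of each gene in CPM per kilobase of exon (log axis, mean of 4 libraries) by complex, with subunits in blue, L-named genes in orange and the median of the subunits as a black line. The assembly factor gene Sdhaf3 and the 3 L paralogues at 0 counts are not drawn. Subunits run from 2.73 for ND-B8 to 1380 for ATPsynC, and the L-named genes do not pass 4.60 (COX5BL).

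Complex I, the NADH dehydrogenase, had the most subunits, and all but ND-B8 lay between 16.1 (ND-AGGG) and 186 CPM per kilobase. ND-ACP, the mitochondrial acyl carrier protein that is also a subunit, was the highest at 186 ± 15.8 CPM per kilobase (SD, n = 4 libraries). The 7 nuclear-encoded core subunits, which carry the flavin and the iron-sulphur clusters or adjoin the quinone site, lay within a range of 1.69-fold. ND-51, which binds NADH and the flavin, stood at 137 ± 13.9 and ND-23 at 81.4 ± 8.60 CPM per kilobase. The 27 other subunits had a median of 62.9 CPM per kilobase. ND-B8 was far below the rest, with 79, 58, 58 and 51 counts and 2.73 ± 0.442 CPM per kilobase, while each other subunit of the set had at least 414 counts in every library.

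Complex II, succinate dehydrogenase, had closely spaced levels. The flavoprotein gene SdhA was at 153 ± 8.22 CPM per kilobase, the iron-sulphur gene SdhB at 114.7 ± 10.9, and the membrane anchors SdhC and SdhD at 100.1 ± 12.1 and 72.9 ± 10.1 (SD, n = 4). The ratio of SdhA to SdhB was 1.339 ± 0.061 across the libraries.

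In complex III, the cytochrome bc1 complex, the core protein genes UQCR-C1 and UQCR-C2 led with 394 ± 27.2 and 226 ± 18.9 CPM per kilobase, a ratio of 1.75 ± 0.045. The lowest was UQCR-6.4 with 32.7 ± 3.32, and 40.5% of its exon bases are shared with POSH. UQCR-14 shares the whole of its exon bases with CG32576, so its counts cannot be assigned with certainty.

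Complex IV, cytochrome c oxidase, has its catalytic subunits in the mitochondrial genome, and its nuclear subunits lay within a 3.62-fold range. COX7A was highest at 342 ± 42.7 CPM per kilobase and COX7C lowest at 94.3 ± 23.7. COX4 and COX5A, which assemble early onto the catalytic subunits, kept a ratio between 0.554 and 0.576 in the 4 libraries.

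Complex V, the ATP synthase, took more than the other complexes together, with 6896 and 6965 CPM of a summed 12992 and 13266 CPM for the 81 genes in the control libraries. ATPsynC, which encodes the subunit of the rotating membrane ring, was the highest member at 1380 ± 150.4 CPM per kilobase (dm6 chromosome 3R, positions 31216145 to 31219630). ATPsynbeta, the catalytic subunit, followed at 712 ± 54.6. Next came UQCR-C1, ATPsyngamma (the central stalk, 357 ± 39.3), ATPsynO (the stalk protein known as OSCP, 347 ± 54.2) and COX7A, whose levels differed by less than the sum of their SDs. ATPsynC was 3.87 ± 0.054 times ATPsyngamma and ATPsynbeta 2.00 ± 0.10 times. ATPsyndelta was the lowest subunit at 74.4 ± 10.5 CPM per kilobase, and 35.6% of its exon bases are shared with CG2962.

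The comparison of Antp RNAi with control asked whether these genes change when the Hox gene Antp is knocked down in the myoblasts. No OXPHOS gene passed the test, although nearly every subunit was slightly lower in the Antp RNAi libraries. Of the 81 genes 70 passed the filter on low counts, comprising the 62 subunits, 6 L paralogues, ATPsynepsilonL and Sdhaf3. With edgeR's quasi-likelihood test 0 of the 70 were called at an adjusted p under 0.001, where 0.463% of all genes tested were called, and 0 at 0.05, where 2.58% were. At an unadjusted p under 0.05 there were 7 (COX7C, ND-51L2, ATPsynF, UQCR-Q, ND-B14.5A, ND-MLRQ and SdhD, named after their values were seen), against 11.5% of all genes. DESeq2 called 0 at 0.001 (2.12% of all genes) and 1, COX7C, at 0.05 (adjusted p = 0.0126, 4.13% of all genes). Limma-voom called 0 at 0.001 (0.319% of all genes) and 0 at 0.05 (2.60%).

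The fitted log2 fold change was below 0 in 68 of the 70 genes and in each of the 62 subunits, where 52.5% of all genes were below 0. COX5BL (0.16) and ATPsynbetaL (0.17) were the exceptions. The median was -0.21, against -0.01 over all genes. In 44 of the 70 the higher Antp RNAi library was still under the lower control, where the share over all genes was 22.1%, and the reverse held in 0, where it was 18.6%.

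Each complex had a median below 0, and differences between complexes were not tested. The median log2 fold change was -0.22 in complex I (37 genes tested), -0.15 in complex II (5), -0.21 in complex III (6), -0.20 in complex IV (9) and -0.25 in complex V (13). Over ordinary subunits alone it was -0.26 in complex IV, whose summed Antp RNAi level was 83.5% of control, against 92.05% for the subunits of complex II. The summed level of the 81 genes was 12992 and 13266 CPM in the control and 10428 and 12603 CPM in the Antp RNAi libraries. The control libraries were close to each other and Antp RNAi replicate 2 was near them, with replicate 1 apart. The Antp RNAi mean was 87.7% of the control mean, being 79.4% in replicate 1 and 96.0% in replicate 2. In bulk libraries fewer cells of a type and less RNA per cell cannot be told apart.

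**Figure D2:**
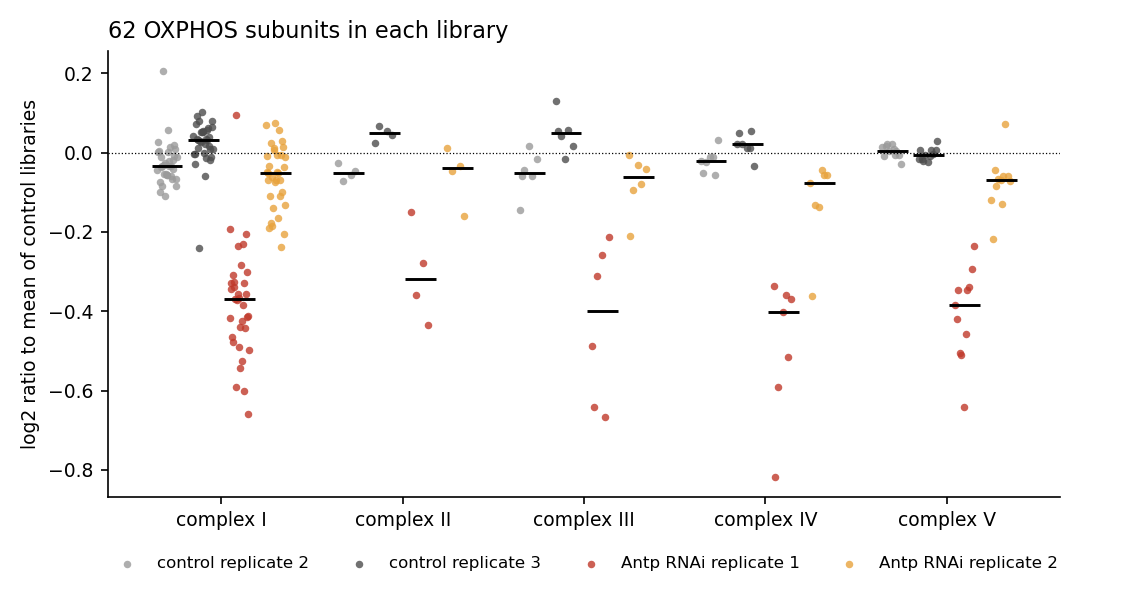
Each of the 62 subunits in each library as the log2 ratio of its CPM (pseudocount 0.1) to the mean of the control libraries, by complex, with black lines at the median of a complex. Points of Antp RNAi replicate 1 (red) lie lower than those of Antp RNAi replicate 2 (orange) in 61 of the 62 subunits, the exception being ND-B8.

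Most of the shift lay in 1 library, Antp RNAi replicate 1, and a smaller part in replicate 2. Against the control mean, the median of the 70 genes was -0.37 (log2) in Antp RNAi replicate 1 and -0.06 in replicate 2, where all genes gave -0.02 and -0.01. Replicate 1 was below both controls in 65 of the 70 (43.7% over all genes) and replicate 2 in 46 (38.7%). Replicate 1 was also below replicate 2 in 66 of the 70, where 50.6% of all genes were.

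Refitting without Antp RNAi replicate 1 left a median of -0.06, with 56 of the 70 below 0 (51.0% over all genes). It called 0 genes at 0.001 (1.46% over all genes) and 1 gene, COX7C, at 0.05 (adjusted p = 0.0338, 7.03% over all genes). Refitting without Antp RNAi replicate 2 gave a median of -0.35 and called 48 of the 70 at 0.05, each lower, where 6.22% of all genes were called lower. By complex these were 24 in complex I, 2 in II, 4 in III, 7 in IV and 11 in V. At 0.001 it called ATPsynE, COX5B, COX7C and UQCR-Q, each lower, where 0.914% of all genes were called lower. In both refits the single Antp RNAi library is assumed to vary like the controls, so its own spread does not enter.

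**Figure D3:**
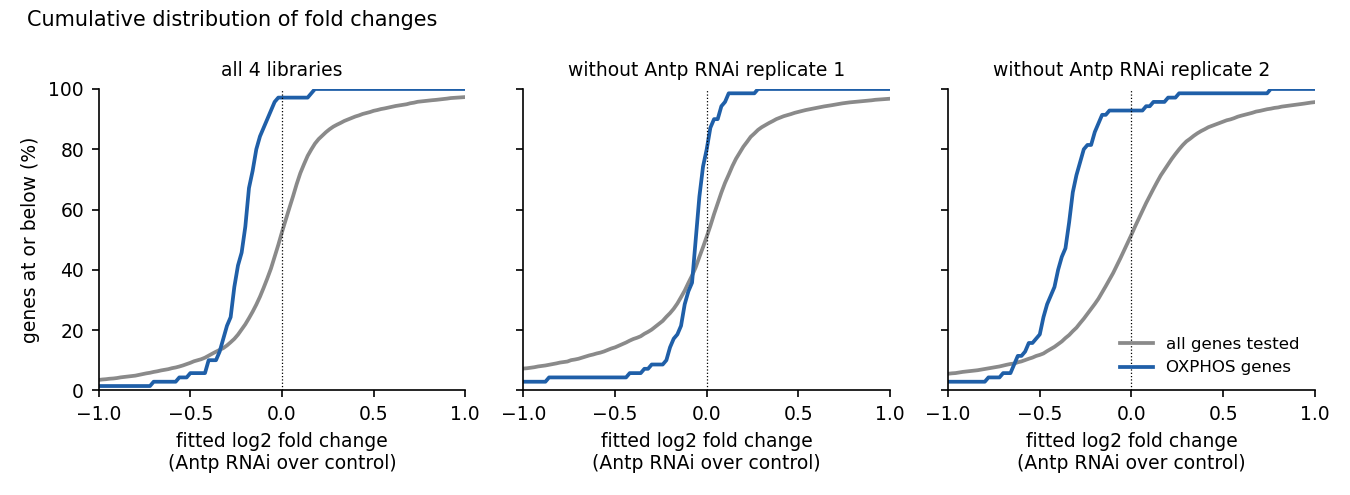
Cumulative share of genes (percent) at or below a given fitted log2 fold change (Antp RNAi relative to control), for the OXPHOS genes tested (blue) and all genes tested (grey), with all 4 libraries and without either Antp RNAi library. The OXPHOS median moves from -0.21 to -0.06 without replicate 1 and to -0.35 without replicate 2, while the median of all genes stays near 0.

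OXPHOS transcripts are short, and exon length moved with the difference between the Antp RNAi libraries. The median exon length was 862 bases in the 70 genes and 1970.5 bases over all genes tested. Across genes, the log2 ratio of replicate 1 to replicate 2 had a Spearman rho with exon length of 0.30 over all genes and 0.43 over the 62 subunits. Genes are not independent replicates, and these coefficients describe points that share the same libraries.

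Within classes of exon length, the subunits were set beside other genes. Below 700 bases the median log2 ratio of replicate 1 to 2 was -0.37 for 11 subunits and -0.16 for 924 other genes. From 700 to under 1000 bases it was -0.38 for 30 subunits and -0.18 for 987 other genes. From 1000 to under 1500 bases it was -0.27 and -0.13, and from 1500 to under 2000 bases -0.26 and -0.05. In these 4 classes, whose median lengths were near each other (1617 and 1731 bases in the longest), the subunits' median was the lower. From 2000 bases it was -0.17 for 4 subunits and 0.08 for other genes, which were longer (median 3401 bases, against 2692). The class limit at 2000 bases was set after seeing the data. The fitted fold changes between the groups (log2) were ordered alike, at -0.26 and -0.15, -0.22 and -0.10, -0.20 and -0.05, -0.14 and -0.02, and -0.12 and 0.04 for subunits and other genes in the 5 classes. The part of exon length in the lower levels was not tested beyond these values.

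**Figure D4:**
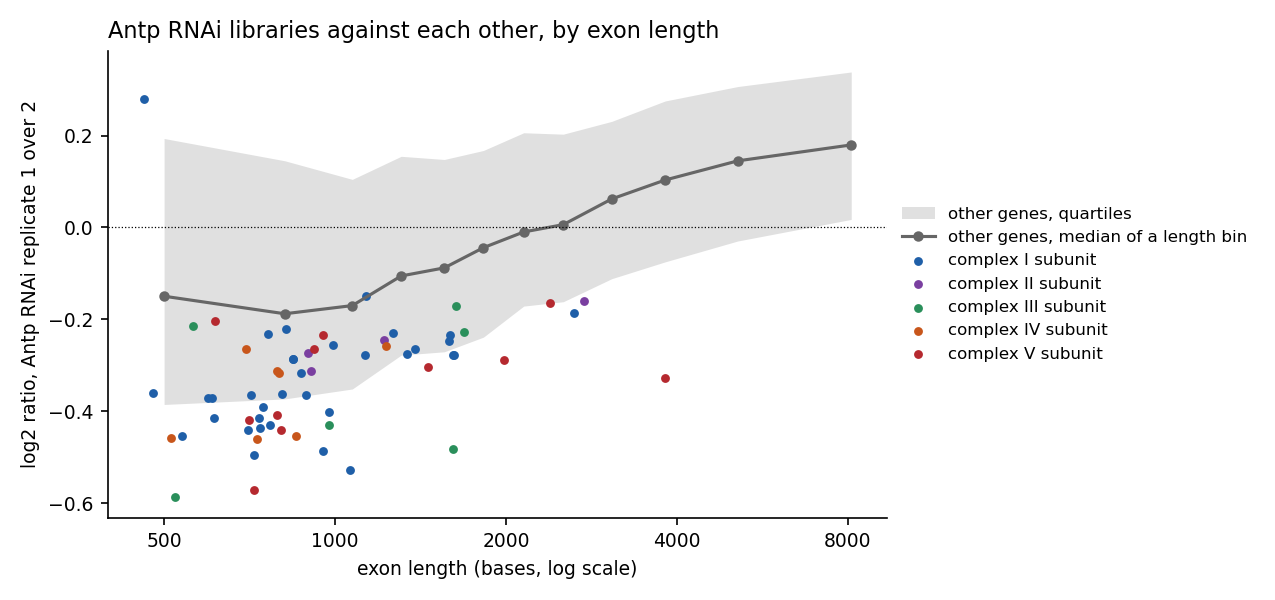
Log2 ratio of Antp RNAi replicate 1 to replicate 2 (CPM, pseudocount 0.1) against exon length in bases (log axis), with each of the 62 subunits as a point coloured by complex and the other genes as the median (grey line) and quartiles (grey band) of 12 length bins. The median of other genes runs from -0.15 in the shortest bin to 0.18 in the longest, and most subunits lie below it.

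The 7 core subunits of complex I had fitted log2 fold changes between -0.30 and -0.08, and none passed the test. ND-75, the iron-sulphur subunit of the NADH-oxidizing arm, had 277 and 276 CPM in the control and 242 and 275 CPM in the Antp RNAi libraries. Replicate 2 was level with the controls and replicate 1 was lower, with a log2 fold change of -0.10 ± 0.11 (SE, adjusted p = 0.842). In replicate 2, ND-51 (228 CPM) and ND-49 (217 CPM) lay within their control ranges of 209.7 to 243 CPM and 207 to 219 CPM. The largest shift among the core subunits was that of ND-24, with 106 and 111 CPM in the control, 72.0 CPM in replicate 1 and 104 CPM in replicate 2, and a log2 fold change of -0.30 ± 0.16. Of the other ordinary subunits, placed here by their ND- symbol alone, ND-MLRQ (-0.42 ± 0.17) and ND-B14.5A (-0.41 ± 0.16) had the lowest values, named after they were seen.

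In complex II, SdhA had 423 and 438 CPM in the control and 388 and 434 CPM in the Antp RNAi libraries, so the groups overlapped (-0.07 ± 0.10, adjusted p = 0.899). SdhD had 69.4 and 74.0 against 53.1 and 64.2 CPM, without overlap (-0.29 ± 0.12, adjusted p = 0.425). In complex III, UQCR-C1 stood at 663 and 678 against 578 and 651 CPM (-0.13 ± 0.10). UQCR-Q, a small subunit, stood at 92.8 and 100.4 against 61.9 and 83.5 CPM (-0.41 ± 0.15, adjusted p = 0.298, edgeR). The groups of this gene did not overlap, and replicate 1 was again the lower.

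COX7C, a small accessory subunit of complex IV, had the largest difference among the subunits (dm6 chromosome 2R, positions 10048353 to 10050066). It stood at 92.8 and 99.7 CPM in the control and at 54.6 and 74.8 CPM in the Antp RNAi libraries, which did not overlap. Its log2 fold change was -0.57 ± 0.15 (adjusted p = 0.123, edgeR), between -0.80 and -0.36 when each library was left out in turn. Of its exon bases 15.7% are shared with oys. COX5B had 121 and 124.5 against 81.3 and 112 CPM (-0.34 ± 0.15), and COX4 had 211 and 217 against 169.7 and 203 CPM (-0.20 ± 0.12).

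In complex V, ATPsynC had 2905 and 2931 CPM in the control and 2294 and 2803 CPM in the Antp RNAi libraries (-0.20 ± 0.11, adjusted p = 0.620). ATPsynbeta had 1753 and 1823 against 1518 and 1702 CPM (-0.15 ± 0.10). Both kept the order of the libraries seen in the sum, with replicate 1 lowest. ATPsynG, a subunit of the membrane part, had 109 and 108 CPM in the control, 85.9 CPM in replicate 1 and 114 CPM in replicate 2, so that only replicate 1 was below the controls.

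**Figure D5:**
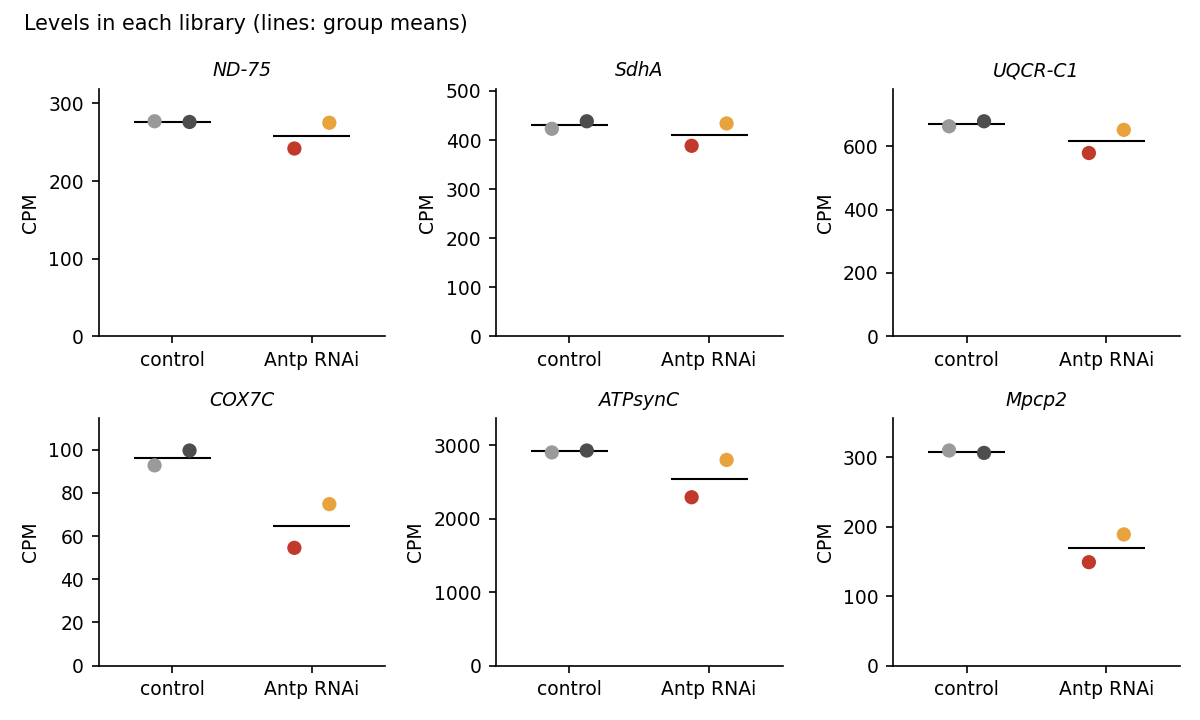
CPM in each of the 4 libraries for 5 subunits and for Mpcp2, the mitochondrial phosphate carrier gene, with lines at the group means and axes from 0. Antp RNAi replicate 1 (red) is the lowest point in every panel. Both Antp RNAi libraries lie below the controls in UQCR-C1, COX7C, ATPsynC, Mpcp2 and, by less than the size of a point in replicate 2, ND-75, but not in SdhA.

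Most L paralogues had few or no counts in these myoblasts, where COX5BL (175 and 127 counts in the control, 123 and 155 in the Antp RNAi libraries) and ATPsynbetaL (98, 76, 81 and 80 counts) had the most. COX5BL, at 4.60 CPM per kilobase, stood above the subunit gene ND-B8. Of the 16, 3 had 0 counts in every library (ND-24L, ND-B14.5AL and ATPsynGL), 8 had at most 3 counts in each library, and 6 passed the filter. Per kilobase and over all 4 libraries, 15 of the 16 were under 1% of their parent. COX5BL was the exception at 2.999%, its parent COX5B being 33.3-fold higher (95% interval 30.7 to 36.2, exact, counting error only), and the whole of the exon bases of COX5BL are shared with CG9596. It also lies next to its parent on the same strand of 2L, COX5B ending at position 6559308 and COX5BL starting at 6559431. The source of the reads counted for COX5BL was not tested. SdhAL, with 1 count in the 4 libraries, was at the other end. For the paralogues at 0, the parent was at least 1521-fold (ND-B14.5A), 4755-fold (ATPsynG) and 5147-fold (ND-24) higher, taking a floor of 3 counts over the 4 libraries.

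The paralogues differed from their parents in structure as well. The paralogues had 15 parents between them. Of the 16 genes, 13 had fewer exon blocks than the parent in the deposited gene models, and 8 had 1 block where the parent had more. The parent lay on another chromosome arm in 13 pairs. ND-20, ND-24, ND-B14.5A and UQCR-14 are on X, and their 4 paralogues are autosomal, whereas SdhBL is the 1 paralogue on X. By the longest annotated coding sequence, 11 paralogues were longer than the parent, 4 shorter and 1 equal.

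The testis germ line list was mixed in these libraries. Its 19 genes in the table summed to between 269 and 297 CPM, of which the cyclin gene CycB3 gave 178 to 206 CPM. The spermatocyte gene aly and the sperm protein genes Mst98Ca and Mst98Cb had 0 counts in the 4 libraries. Of the 10 genes tested, 0 were called at 0.05 by edgeR (2.58% over all genes) and 0 had an unadjusted p under 0.05 (11.5%). DESeq2 and limma-voom also called 0 at 0.05 (4.13% and 2.60% over all genes).

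Of the 6 paralogues tested, ND-51L2 had the largest difference (dm6 chromosome 2R, positions 15296764 to 15298329). The control libraries held 24 and 16 counts of it and the Antp RNAi libraries 2 and 3. The groups did not overlap, and scaled to library size the control was 6.57-fold higher (95% interval 2.59 to 21.3, exact binomial, counting error only). The gene passed the low-count filter only through the control libraries, where it was high, so these values lend no support to a difference. It is also among the 44 members without overlap and the 7 at an unadjusted p under 0.05 by edgeR. The fitted log2 fold change was -2.67 ± 0.72 (SE) and missed the threshold (adjusted p = 0.128, edgeR). The related ND-51L1 had 32 and 23 against 13 and 19 counts (-0.50 ± 0.52), and COX4L had 22 and 10 against 21 and 4 counts (-0.05 ± 0.82). ATPsynepsilonL, an L-named gene whose parent is sun, had 22 and 54 against 14 and 24 counts, which overlap (-0.72 ± 0.58).

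Genes around the OXPHOS set were read from the same fit, as far as the listed symbols were in the table (11 of 13 other subunits and carriers of electrons, 11 of 24 assembly genes, 14 of 20 TCA cycle genes, 10 of 10 mitochondrial carriers and 18 of 21 regulators). DESeq2 and limma-voom each called the same 1 gene at 0.05 in these lists, Mpcp2 (4.13% and 2.60% over all genes). Of 10 tested subunit and electron carrier genes with other names, 0 were called at 0.05 and 9 were below 0. The median of the 10 was -0.22, and 4 of them had an unadjusted p under 0.05. Among the 9 is Cyt-c-d (-0.89), with control counts of 11 and 21 against Antp RNAi counts of 8 and 6. Only the control libraries carried Cyt-c-d past the low-count filter, so its value lends no support to a lower level. The ATP synthase alpha gene blw had 2163 and 2104 against 1929 and 2002 CPM (-0.12), and the Rieske protein gene RFeSP had 195 and 189 against 137 and 172 CPM (-0.31). Cyt-c-p, which encodes somatic cytochrome c, was the 1 above 0, with 152 and 152 against 146 and 175 CPM (0.08).

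Over all genes, 2.58% were called at 0.05 by edgeR, 52.5% were below 0 and 11.5% had an unadjusted p under 0.05. Of 11 assembly genes tested 0 were called, with 10 below 0 and a median of -0.10, and 1 at an unadjusted p under 0.05. Of 13 TCA cycle genes 0 were called at 0.05 and 0 at an unadjusted p under 0.05, with 8 below 0 and a median of -0.07. Of 18 regulators of mitochondrial biogenesis and mtDNA upkeep 0 were called, with 9 below 0, a median near 0 and 2 at an unadjusted p under 0.05. Among these srl, the PGC-1 coactivator gene, stood at 309.9 and 302 against 348 and 324 CPM (0.14), and TFAM, which packages mtDNA, at 126 and 126 against 111 and 131 CPM (-0.06).

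The mitochondrial carriers held the 1 gene of these lists that passed at 0.05, where 2.58% of all genes did. Mpcp2, which imports the phosphate used by ATP synthase, stood at 309.9 and 306 CPM in the control and at 149 and 189 CPM in the Antp RNAi libraries. It fell by 0.87 on the log2 scale (± 0.13 SE, adjusted p = 0.0114, edgeR), and missed the threshold of 0.001. The other 9 carrier genes were not called. The adenine nucleotide exchanger gene sesB had 488 and 460.5 against 383 and 557 CPM, its groups overlapping, and the list's median was -0.02.

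Some of the genes listed as markers of other cells also differed between the groups. The 8 hemocyte genes summed to 211 and 197 CPM in the control and 50.6 and 48.5 CPM in the Antp RNAi libraries, mostly through Pxn (169.7 and 151 against 6.98 and 5.70 CPM). The next most abundant gene of the list, crq, gave 39.4 and 44.0 against 43.0 and 42.5 CPM (0.04), most of the sum in the Antp RNAi libraries. NimC1 (44 and 45 counts in the control, 1 and 1 in the Antp RNAi libraries) and srp (41 and 43 against 25 and 10 counts) were also lower. Of the 4 hemocyte genes tested, Pxn and NimC1 were called at 0.05 by edgeR, where 2.58% of all genes were. NimC1 passed the low-count filter only through the control libraries. The hemocyte gene NimC4 was at 0 and Hml, He and eater were at most 0.188 CPM. The 10 disc epithelium genes summed to 598 and 600 CPM in the control and to 764 and 650 CPM in the Antp RNAi libraries, highest in replicate 1. The sum came mainly from ap, ara and caup, and the genes went both ways. Of 8 tested, 5 were higher and 3 lower. Fas3 (1.23) and caup (0.77) were the 2 called at 0.05 by edgeR (2.58% over all genes). E(spl)m8-HLH (-0.68), mirr (-0.57) and ap (-0.09) were lower and not called by edgeR. At 0.05 limma-voom called the same 2 (2.60% over all genes). DESeq2 called 3 of the 9 it fitted, Fas3, caup and E(spl)m8-HLH (4.13% over all genes). The trachea list summed to between 23.6 and 26.6 CPM. The part of these cells in the lower OXPHOS levels was not tested.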

How the data were processed

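The deposited count table holds whole-number read counts per gene over exons, which the authors made without normalization for 4 libraries, with exon length in bases. The submitters' processing notes name bcl2fastq 2.17.1.14, Subread, featureCounts, DESeq2 1.34 and the build dm6. The use of strand, the treatment of multimapping or overlapping reads and the annotation release are not given in the sources used here. Exons of 31 of the 81 members share bases with another gene. SMART-Seq full-length cDNA was tagmented and amplified without molecular identifiers. A second deposited table holds the authors' own DESeq2 comparison (mean signal, log2 fold change, p-value), and none of its values was used. Gene symbols were read from it.

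Counts were fitted with edgeR 4.0.16 (TMM, filterByExpr with a minimum count of 10, quasi-likelihood F-test, two-sided, Benjamini-Hochberg over the 10360 genes tested). Genes were called at an adjusted p under 0.001, and 0.05 is also given. DESeq2 1.42.0 and limma-voom (limma 3.58.1), other scalings, filters and left-out libraries were alternatives. Each fit was tested on simulated data with the same dispersion for every gene and no outlying library or trend with exon length. The planted changes were larger than the shifts of the subunits, so the simulation does not cover shifts of that size. With 2 libraries per group an exact permutation test cannot go below p = 0.333, so none was run. The members were matched to Ensembl annotation release 115 of the same assembly (all 81 with the same start and end, all protein-coding). Groups came from the sample titles, and no count column lacked a sample.

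The members and lists were chosen with earlier results of these data known. Named genes were those with an adjusted p under 0.05, the 3 largest falls and rises, the highest and lowest level in each complex, the L paralogues with their parents, a fixed set of well-known subunits and Antp. Others were chosen after their values were seen.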

Additional observations from a re-analysis of the deposited data

How the results depend on the processing

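The members' median log2 fold change lay between -0.23 and -0.19 under other scalings, filters and tests, with 68 of 70 members below 0 under each scaling. Restricted to members with under 1000 bases of exon, an alternative chosen after seeing the data, the median was -0.24. Leaving out each library in turn moved it between -0.35 and -0.06, the upper end being without Antp RNAi replicate 1, and moved the complex V median between -0.37 and -0.0645. The members called at 0.001 then ran from 0 to 4 and the subunit and electron carrier genes with other names from 0 to 2, the most being without Antp RNAi replicate 2. A group left with 1 library was assumed to vary like the other. Over all genes 48 were called at 0.001, against 236 with DESeq2, 120 with every gene of at least 1 count, 29 without overlapping genes (fewer genes tested), 267 at 0.05, and 153 to 228 with a library left out. At 0.001 the carriers had 0 calls and 1, Mpcp2, with DESeq2, with every gene of at least 1 count or at 0.05, and 0 to 1 with a library left out. The cause of these changes was not tested. The ratio of the median complex V subunit to the median complex I subunit, taken within each library and averaged, was 4.125 per kilobase and 4.73 in CPM.

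Among the named genes, several log2 fold changes crossed 0 when a library was left out. The ranges were -0.32 to 0.0768 for ATPsynG, -0.0061 to 0.40 for ATPsynbetaL, -1.19 to 0.0524 for ATPsynepsilonL, -1.75 to 0.74 for COX4L, -0.0615 to 0.45 for COX5BL, -0.19 to 0.0341 for ND-49, -0.88 to 0.18 for ND-49L, -0.22 to 0.0167 for ND-51, -0.21 to 0.062 for ND-ACP, -0.13 to 0.0161 for SdhA, -0.17 to 0.11 for Sdhaf3 and -0.47 to 0.0005 for UQCR-11. Subunits outside the named genes are not in this list, although Antp RNAi replicate 2 was above the control mean in some, such as ND-19 and ND-13A (each 0.07, log2). No paired analysis was possible because 1 replicate number, 2, occurs in both conditions.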
